A study of Mus musculus with 9 samples.

Results

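The genes described here are the embryonic and adult globins of the mouse, with 2 further genes of red cells. They were given by name, matched from symbol to mouse Ensembl gene ID, and all 9 of 9 had values in the tables, among 15300 genes in all. They are Hbb-y and Hbb-bh1 (embryonic beta-like globins), Hbb-bs and Hbb-bt (adult beta globins), Hba-x (the embryonic alpha-like globin, zeta), Hba-a1 and Hba-a2 (adult alpha globins), Alas2 and Slc4a1.

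RNA was sequenced from gonads of C57BL/6 mouse fetuses at E13.5 (days after conception), dissected off the mesonephros and frozen. There were 9 samples in 3 groups of 3. All groups carried homozygous floxed Sox9 alleles. XY-WT samples were testes and XX-WT samples ovaries with no Cre stated, and XY-KO samples were testes that also carried AMH-Cre, a Cre recombinase driven by the AMH promoter, which is active in Sertoli cells and not in blood cells. Whether a sample was 1 fetus or a pool, and whether blood was washed out, is not stated, so p-values measure the spread between these samples, which may be technical. Sox9 was 2.76 lower on the log2 scale in XY-KO than in XY-WT in the authors' deposited table (SE 0.172, limma adjusted p 8.93e-07). The tissue labels were matched by Amh, the Sertoli cell hormone, at derived levels of 6.74 log2 CPM in XY-WT and 4.68 in XY-KO, and by Fst, an ovarian gene, at 7.02 in XX-WT against -0.25 in XY-WT and 0.34 in XY-KO.

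Globins carry oxygen in red cells as tetramers of alpha-like and beta-like chains, each chain holding a heme. In the mouse embryo the first, primitive red cells arise in the yolk sac and make the embryonic chains. Definitive red cells from the fetal liver make the adult chains. Within primitive cells Hbb-bh1 is used early and Hbb-y later. The adult chains are not taken here as a mark of definitive cells, and which cells gave each transcript was not tested. Alas2 makes the first, rate-limiting step of heme synthesis in red cells, and Slc4a1 encodes band 3, the anion exchanger of the red cell membrane. Red cells reach the fetal gonad in the blood of its vessels.

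Globin transcripts were lower in XY-KO than in XX-WT for 5 of the 7 globin genes: Hbb-bh1, Hbb-y, Hba-x, Hba-a1 and Hba-a2. Among all genes 9.11% were called lower in that comparison. The 5 are red cell transcripts measured in the same samples, so their calls are not independent of each other. The size ran from 1.72-fold for Hba-a1 to 2.88-fold for Hbb-bh1. The adult beta genes Hbb-bs and Hbb-bt and the red cell genes Alas2 and Slc4a1 did not pass in that comparison. Between the control gonads Hbb-bh1 alone among the 9 passed, 2.36-fold higher in XX-WT, a share near the 10.9% of all genes called higher there. Between XY-KO and XY-WT none of the 9 passed, where 2.27% of all genes did. With a trend of fold change on GC content and transcript length removed, Hbb-bh1 was the single gene of the 5 that still passed between XY-KO and XX-WT. Its expression was below that of the genes on which the trend was fitted.

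Levels are given per group, because the tables held results of the group fits. Each level was derived from the authors' mean log2 expression and fold changes, in log2 CPM (CPM, counts scaled to a common library total), and has no error of its own. Hbb-y was the most abundant of the 9, at 8.19 in XY-WT, 9.03 in XX-WT and 8.03 in XY-KO, and its mean stood above that of 99.2% of all genes. Hba-x followed at 6.37 in XY-WT, 6.82 in XX-WT and 5.67 in XY-KO. Both embryonic genes were highest in XX-WT and lowest in XY-KO. The adult beta gene Hbb-bt lay at 5.62 in XY-WT, 5.94 in XX-WT and 5.51 in XY-KO. Its neighbour Hbb-bs lay at 5.04, 5.14 and 4.82 in the same order. The adult beta genes kept the same order of groups with less distance between them. Hba-a2 lay at 4.88 in XY-WT, 5.17 in XX-WT and 4.24 in XY-KO. Hba-a1 lay at 4.75, 5.01 and 4.23 in that order. Both adult alpha genes were lowest in XY-KO, and neither passed the test between XY-KO and XY-WT. Slc4a1 lay at 3.50 in XY-WT, 3.84 in XX-WT and 3.26 in XY-KO. Hbb-bh1 had the lowest mean of the 9, above that of 43.7% of genes. It lay at 2.44 in XY-WT, 3.68 in XX-WT and 2.15 in XY-KO, and in XX-WT Alas2 lay below it. Alas2 was the exception in order: 2.99 in XY-WT, 3.31 in XX-WT and 3.41 in XY-KO. The other 8 genes all had XY-KO lowest and XX-WT highest; with the GC and length trend removed, Hbb-bt was no longer lower in XY-KO than in XY-WT.

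**Figure D1:**
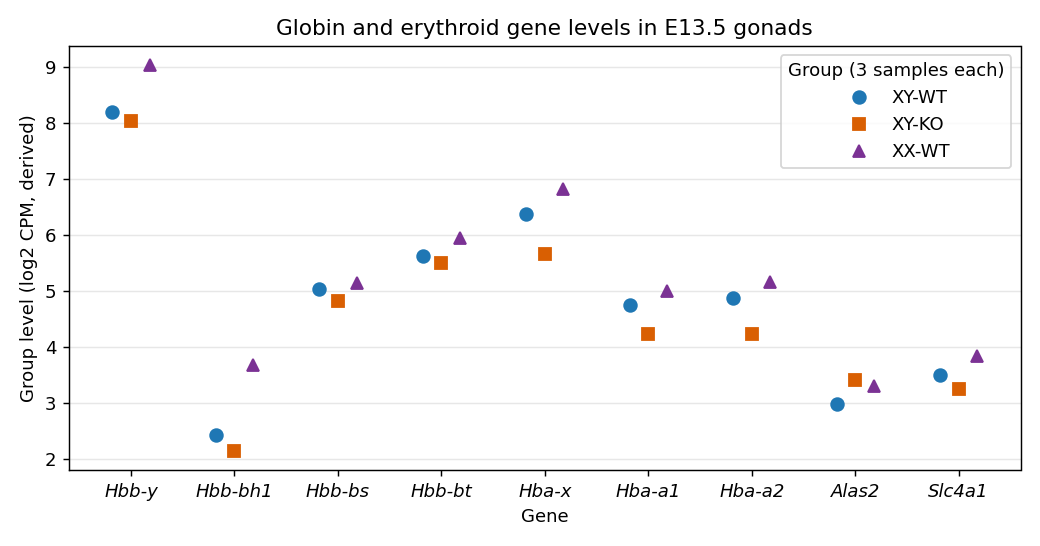
Derived level of each gene (log2 CPM, vertical axis) in each group of 3 samples, with 1 point per group and no error bar because the levels are derived from fitted values. XX-WT is the highest group for 8 of the 9 genes, the exception being Alas2, and Hbb-y is the most abundant gene in every group.

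Levels of different genes were compared per kilobase of the longest annotated transcript. On that scale Hbb-y held 77.8% of the beta-like globin level in XY-WT, 83.4% in XX-WT and 78.0% in XY-KO. Hbb-bh1 held 1.5%, 2.11% and 1.36% in the same order. Embryonic beta-like transcripts were thus the larger part in every group, nearly all from Hbb-y. The adult genes Hbb-bs and Hbb-bt held 8.85% and 11.8% in XY-WT, 5.66% and 8.81% in XX-WT, and 8.45% and 12.2% in XY-KO. Among alpha-like globins, Hba-x held 52.9% of the level per length in XY-WT, 56.0% in XX-WT and 51.1% in XY-KO. The summed beta-like level per length was 591 CPM per kb in XY-WT, 989 in XX-WT and 531 in XY-KO. The summed alpha-like level was 195, 252 and 125 CPM per kb. The beta-like sum stood above the alpha-like sum by 3.03 times in XY-WT, 3.92 times in XX-WT and 4.26 times in XY-KO. The 7 globins together came to 518 CPM in XY-WT, 813 in XX-WT and 429 in XY-KO.

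**Figure D2:**
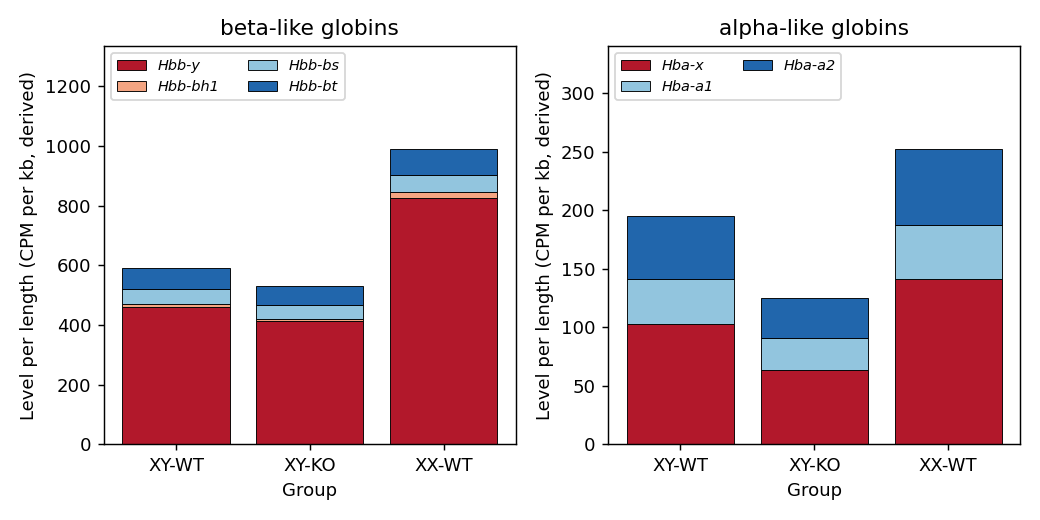
Derived level per length (CPM per kb, vertical axis starting at 0) of the beta-like (left) and alpha-like (right) globins in each group, stacked by gene. Hbb-y makes up most of the beta-like bar in all 3 groups, and both bars are tallest in XX-WT, at 989 and 252 CPM per kb.

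The sums depend on how reads were assigned within pairs of near-identical genes. The coding sequences of Hba-a1 and Hba-a2 differed at 1 of 429 bases, and those of Hbb-bs and Hbb-bt at 1 of 444. Of all stretches of 150 bases, the read length, 48.4% in Hba-a1 and 65.7% in Hba-a2 occurred also in the other gene, as did 58.7% in Hbb-bs and 50.7% in Hbb-bt. A single read from those stretches cannot be told apart. Reads came in pairs, and a mate outside such a stretch may still place its pair. How the authors' counting treated such reads is not given in the sources used here. Values of each of these 4 genes are therefore uncertain, and their sums may fall short. No such stretch of Hbb-y, Hbb-bh1, Hba-x, Alas2 or Slc4a1 occurred in a transcript of another gene. Coding identity was 76.4% between Hbb-bh1 and Hbb-y, 74.3% between Hbb-y and Hbb-bs, and 64.2% between Hba-x and Hba-a1.

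The beta-like genes lie together on chromosome 7 on the minus strand of GRCm38: Hbb-bt from 103812524 to 103813996, Hbb-bs from 103826534 to 103828096, Hbb-bh1 from 103841637 to 103843164 and Hbb-y from 103851749 to 103853216. The alpha-like genes lie on the plus strand of chromosome 11: Hba-x from 32276400 to 32278116, Hba-a1 from 32283511 to 32284465 and Hba-a2 from 32296489 to 32297298. Slc4a1 also lies on chromosome 11, from 102348824 to 102366203 on the minus strand, and Alas2 on chromosome X, from 150547375 to 150570638 on the plus strand. The 130 bases before the RefSeq start (GRCm38.p6) are shown for 3 globins that passed between XY-KO and XX-WT and for the 2 adult beta genes that did not, so that the promoters of both sets can be read side by side. They were taken from chr7:103853208-103853337 (minus strand), chr11:32276470-32276599 (plus), chr11:32283542-32283671 (plus), chr7:103827929-103828058 (minus) and chr7:103813924-103814053 (minus), and are written 5′ to 3′ on the gene's strand. GENCODE places the starts further upstream than RefSeq. The windows of Hba-x, Hba-a1 and Hbb-bs therefore lie wholly inside the GENCODE gene bounds given above, and those of Hbb-y and Hbb-bt lie partly inside them.
Hbb-y: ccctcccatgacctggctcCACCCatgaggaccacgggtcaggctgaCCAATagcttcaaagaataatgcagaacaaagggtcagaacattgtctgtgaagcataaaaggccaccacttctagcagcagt
Hba-x: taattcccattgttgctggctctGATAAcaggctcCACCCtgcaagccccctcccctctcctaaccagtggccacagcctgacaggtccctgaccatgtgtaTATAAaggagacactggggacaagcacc
Hba-a1: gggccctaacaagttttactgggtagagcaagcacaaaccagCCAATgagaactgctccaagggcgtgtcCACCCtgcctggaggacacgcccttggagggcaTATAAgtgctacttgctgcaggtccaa
Hbb-bs: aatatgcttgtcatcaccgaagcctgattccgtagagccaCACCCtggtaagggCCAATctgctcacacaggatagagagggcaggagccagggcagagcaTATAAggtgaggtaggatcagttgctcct
Hbb-bt: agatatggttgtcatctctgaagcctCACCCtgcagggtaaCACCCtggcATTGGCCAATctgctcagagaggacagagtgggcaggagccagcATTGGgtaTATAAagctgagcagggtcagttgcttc
Capitals mark matches to 4 short motifs on either strand, none of which overlap each other here. CACCC is the core of the element that KLF1 binds in globin promoters, and CCAAT and the TATA box are general promoter elements, the latter searched as TATAA, while the GATA1 core was searched as GATAA. The first, CACCC, was found in all 5, and in 33.7% of the 32851 mouse promoter windows of the same length. CCAAT was found in 4 of the 5, Hba-x being without it, against 22.4% of windows. TATAA was found in 4 of the 5, Hbb-y being without it, against 12.7% of windows. GATAA was found in Hba-x alone, against 11.4% of windows. The Hba-a2 window matched that of Hba-a1 at every base over the 127 bases they shared. None of the 4 motifs separates the 3 shown genes that passed from the 2 adult beta genes. With CACCC in 33.7% of all windows, its presence alone could not be expected to separate them. No promoter was available for Hbb-bh1, which also passed.

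XY-KO against XX-WT compares the Sox9-deleted testis with the control ovary. Of the 9 genes 5 were lower in XY-KO at a limma adjusted p under 0.05 and none was higher, while 18.3% of all 15300 genes were called, 9.11% lower and 9.16% higher. At an unadjusted p under 0.05 there were 6 of the 9, against 29.5% of all genes. The median log2 fold change of the 9 was -0.78, against -0.003 for all genes. The 9 genes are all of red cells and were measured in the same samples. Their calls are therefore not independent of each other, and 5 calls are not 5 separate observations. Globin RNA can be lower through fewer red cells or through less RNA per cell, and bulk samples cannot tell these apart.

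The embryonic globins had the largest differences in that comparison. In the authors' deposited table Hbb-bh1 stood at -1.53 (SE 0.415, limma adjusted p 0.0167), 2.88-fold lower (95% interval 1.56 to 5.32). For Hba-x the authors' deposited table gave -1.15 (SE 0.340, limma adjusted p 0.0270), 2.22-fold lower (1.34 to 3.67). Hbb-y, the main beta-like chain here, was 1.99-fold lower (1.27 to 3.12; limma adjusted p 0.0318; the authors' deposited table). The 3 intervals overlap widely, and the differences between the genes were not tested.

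Of the adult chains, the alpha genes passed and the beta genes did not. The authors' deposited table gave Hba-a2 -0.93 (SE 0.257, limma adjusted p 0.0184) and Hba-a1 -0.78 (SE 0.237, limma adjusted p 0.0312), 1.90-fold and 1.72-fold lower. For Hbb-bt it was -0.42 (95% interval -0.94 to 0.09, limma adjusted p 0.270) and for Hbb-bs -0.32 (-0.80 to 0.16, limma adjusted p 0.382; the authors' deposited table). Both adult beta intervals include no difference and also the value of Hba-a1, and the difference between the families was not tested. The band 3 gene Slc4a1 stood at -0.58 (-1.10 to -0.06, limma adjusted p 0.124) in the authors' deposited table. Alas2 stood at 0.10 there, with an interval from -0.36 to 0.55 that lies above the whole interval of Hbb-bh1 (-2.41 to -0.64).

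**Figure D3:**
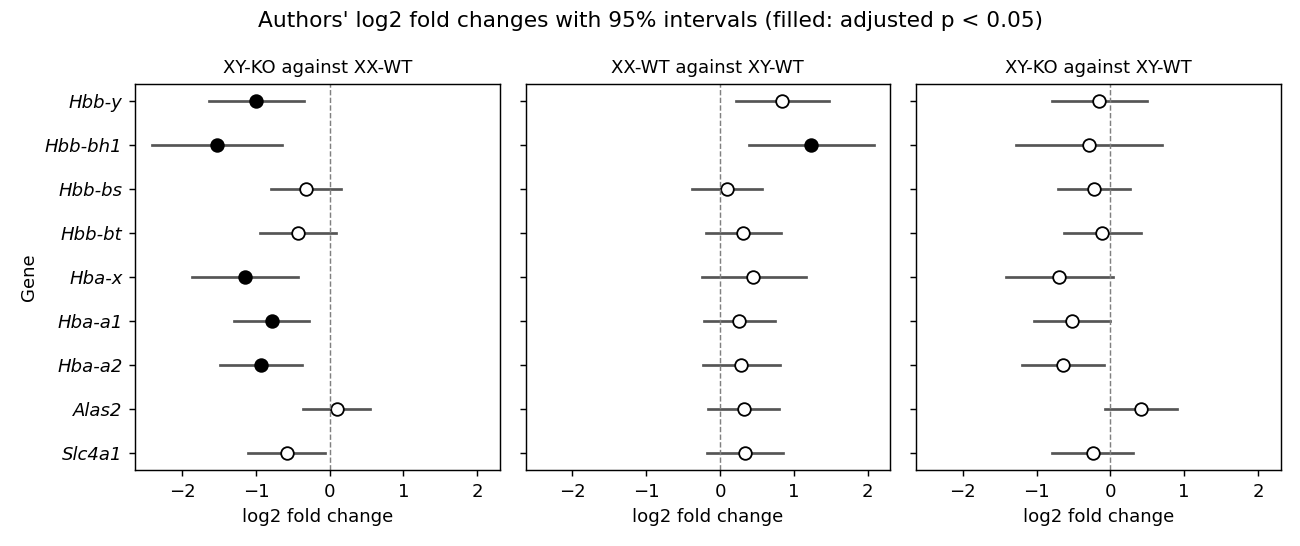
The authors' log2 fold change (horizontal axis) of each gene in the 3 comparisons, with 95% intervals from the implied SE; filled points have a limma adjusted p under 0.05. In XY-KO against XX-WT 5 globins are filled, from -1.53 to -0.78; in XX-WT against XY-WT 1 is filled, and in XY-KO against XY-WT none.

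These calls depend on how sequence composition is treated. A trend of fold change on GC content and transcript length was fitted over genes at or above median expression. Globin transcripts are short, from 554 to 801 bases. The trend took up between -0.18 and -0.14 log2 of the globin differences between XY-KO and XX-WT. With the trend removed Hbb-bh1 was at -1.38 (limma-based adjusted p 0.0295). The mean of Hbb-bh1, 2.76 log2 CPM, lies below the median of 3.19, so its correction was extended from genes of higher expression. Hba-x was then at -1.01 (adjusted p 0.0514), Hba-a2 at -0.75 (0.0533), Hbb-y at -0.84 (0.0688) and Hba-a1 at -0.63 (0.0820). All 5 remained negative, and 1 of the 5 was called.

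XX-WT against XY-WT sets the control ovary beside the control testis. All 9 genes had a positive log2 fold change and 1 was called higher, where 23.3% of all genes were called, 10.9% higher and 12.4% lower; the median was 0.32 against 0.004 for all genes. At an unadjusted p under 0.05 there were 2 of the 9, against 35.4% of all genes. In the authors' deposited table Hbb-bh1 was 2.36-fold higher in XX-WT (95% interval 1.31 to 4.23, limma adjusted p 0.0341). Hbb-y was just outside the threshold, at 0.84 (SE 0.298, limma adjusted p 0.0531; the authors' deposited table). The next in size was Hba-x at 0.45 (-0.25 to 1.16, limma adjusted p 0.353; the authors' deposited table). The other 6 genes lay between 0.10 for Hbb-bs and 0.34 for Slc4a1 in the authors' deposited table, each with an interval that includes 0. With the GC and length trend removed all 9 stayed positive, Hbb-bh1 at 1.16 (limma-based adjusted p 0.0467), and the adult alpha genes moved up to 0.42 for Hba-a1 (adjusted p 0.215) and 0.41 for Hba-a2 (adjusted p 0.260).

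XY-KO against XY-WT compares the Sox9-deleted testis with the control testis. XY-KO also carried AMH-Cre and XY-WT had no Cre stated, so Sox9 loss and Cre presence cannot be told apart. None of the 9 genes was called by limma, where 2.27% of all genes were called, 1.57% lower and 0.699% higher. At an unadjusted p under 0.05 there were 2, the adult alpha genes, against 18.9% of all genes. The authors' deposited table gave Hba-a2 -0.64 (SE 0.262, unadjusted p 0.0264 and limma adjusted p 0.200) and Hba-a1 -0.52 (SE 0.243, unadjusted p 0.0491 and limma adjusted p 0.261). The authors' deposited table placed Hba-x at -0.70 with an interval from -1.42 to 0.03, so that a fall as large as that against XX-WT lay within its error. With the GC and length trend removed these alpha values shrank to -0.34 for Hba-a2 (limma-based adjusted p 0.574), -0.21 for Hba-a1 (0.747) and -0.43 for Hba-x (0.597). For Hbb-y the authors' deposited table gave -0.15 (-0.79 to 0.49), for Hbb-bh1 -0.29 (-1.28 to 0.70), for Hbb-bs -0.22 (-0.71 to 0.27) and for Hbb-bt -0.11 (-0.63 to 0.41). Slc4a1 was at -0.24 and Alas2 at 0.42 (-0.07 to 0.90, limma adjusted p 0.336; the authors' deposited table). The 3 comparisons share samples: XX-WT and XY-KO each enter 2 of them, as does XY-WT, so their values are not independent of each other.

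The errors of the globins were wide for their abundance. In XY-KO against XX-WT the SE of Hba-x, 0.340, was larger than that of 99.6% of the 1172 genes within 0.5 log2 CPM of its mean, whose median SE was 0.132. The SE of Hbb-y, 0.304, exceeded 98.3% of 172 like genes, with a median of 0.137. The SE of Hbb-bh1, 0.415, exceeded 98.8% of 2257 like genes. For the adult globins the same percentile ran from 96.6% for Hbb-bs to 98.3% for Hba-a2. Globin transcripts thus varied more between samples of a group than most genes of their abundance. The red cell genes lay lower in this ranking, Slc4a1 at 92.8% and Alas2 at 75.1%. Which samples carried the spread cannot be read from group results.

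**Figure D4:**
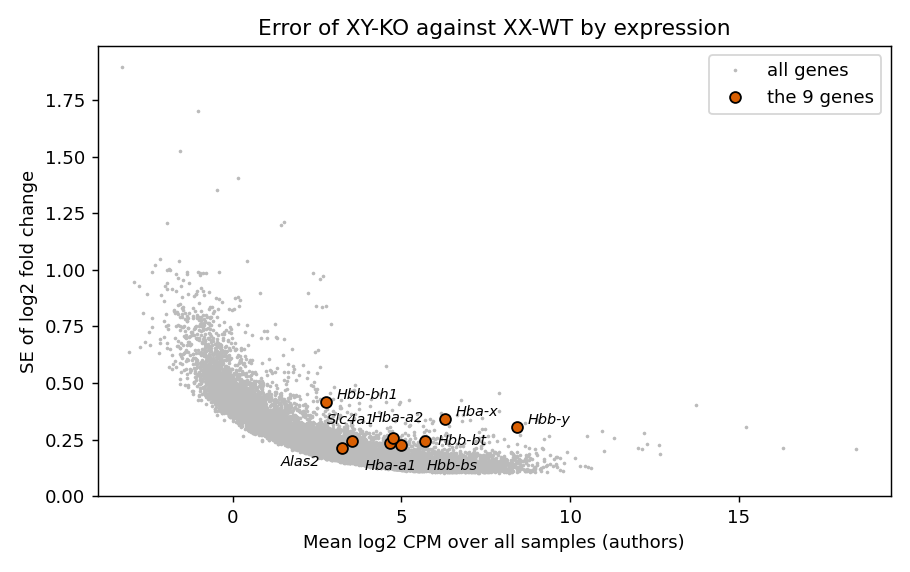
SE of the log2 fold change of XY-KO against XX-WT (vertical axis) against the authors' mean log2 CPM (horizontal axis), with all 15300 genes in grey and the 9 genes in orange. Hbb-y, Hba-x and Hbb-bh1 lie along the upper edge of the cloud at their abundance, while Alas2 lies nearer its middle.

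Other genes of red cell biology were taken from lists of heme synthesis, iron handling, red cell membrane, erythroid transcription factors, other globins and further erythroid genes. Values were present for 79 of the 98 listed symbols, and the others were not analysed here. Many of these genes also work in other gonad cells. In XY-KO against XX-WT 10 of the 79 were lower and 6 higher, with a median of -0.02. These shares are of the same order as the 9.11% lower and 9.16% higher among all genes. In XX-WT against XY-WT 9 were lower and 8 higher, with a median of 0.05, near the 12.4% lower and 10.9% higher among all genes. In XY-KO against XY-WT 1 was lower and none higher, with a median of -0.04, beside 1.57% lower and 0.699% higher among all genes. That gene was Pcbp1, an iron chaperone and RNA-binding protein, at -0.67 in the authors' deposited table (SE 0.166, limma adjusted p 0.0469). It was no longer called once fold changes were centred on their median or the GC and length trend was removed.

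Genes of the red cell membrane were called at about the share of all genes between XY-KO and XX-WT. Of 19 measured, 2 were higher and 1 lower in XY-KO, with a median of 0.06, where 18.3% of all genes were called. For these, the authors' deposited table gave 1.02 for Sptb (SE 0.184, limma adjusted p 0.000864), erythroid beta spectrin, and 0.82 for Piezo1 (limma adjusted p 0.00212), a mechanosensitive channel of many cell types. Cd59a, a complement regulator, was at -0.68 (limma adjusted p 0.0419) in the authors' deposited table. In XY-KO against XY-WT none of the 19 was called by limma and 1 had an unadjusted p under 0.05, against 18.9% of all genes. There 12 of the 19 values were positive and 7 negative, with a median of 0.31 against -0.011 for all genes. Ermap, a membrane protein of erythroblasts, was at 0.82 (SE 0.451) in the authors' deposited table and did not pass. In XX-WT against XY-WT Piezo1 alone of the 19 was called, at -1.10 (limma adjusted p 0.000129) in the authors' deposited table, where 23.3% of all genes were called.

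In heme synthesis the largest difference lay in Alas1. This gene, the form of the first enzyme that all tissues use, had derived levels of 5.98 log2 CPM in XY-WT, 3.01 in XX-WT and 5.65 in XY-KO. In the authors' deposited table it was -2.96 in XX-WT against XY-WT (SE 0.198, limma adjusted p 4.23e-08) and 2.64 in XY-KO against XX-WT (SE 0.200, limma adjusted p 2.04e-07). Alas2 was called in neither. Of the 15 genes measured, 1 was higher and 3 lower in XX-WT than in XY-WT, 1 was higher and 2 lower in XY-KO than in XX-WT, and none was called by limma between XY-KO and XY-WT, where 2 had an unadjusted p under 0.05. The shares over all genes were 10.9% higher and 12.4% lower, 9.16% higher and 9.11% lower, and, for the unadjusted p, 18.9%. Abcb10, a mitochondrial transporter of heme-making cells, was at -0.53 in XX-WT against XY-WT (limma adjusted p 0.00947) in the authors' deposited table.

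Iron genes were called in both directions. Of 13 measured, 2 were higher and 3 lower in XX-WT than in XY-WT, and 1 was higher and 2 lower in XY-KO than in XX-WT. All genes were called at 23.3% and 18.3% in these comparisons, so the 3 of 13 in the second lie near the background. Tfrc, the transferrin receptor, stood at 0.67 in XX-WT against XY-WT (limma adjusted p 0.00124) and at -0.82 in XY-KO against XX-WT (limma adjusted p 0.000321) in the authors' deposited table. Slc11a2, the iron transporter DMT1, stood at 0.80 (limma adjusted p 0.000178) and -0.77 (limma adjusted p 0.000337) in the same comparisons of the authors' deposited table. Steap3, an iron reductase, went the other way between the control gonads, at -1.36 (limma adjusted p 0.000713) in the authors' deposited table. Slc40a1, the iron exporter ferroportin, was at 0.52 in XY-KO against XX-WT (limma adjusted p 0.0225) in the authors' deposited table.

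Among 17 measured transcription factors of the red cell lineage, the differences of largest size between XX-WT and either testis were in Runx1, Gata2 and Nfe2. Runx1 was at 3.89 in XX-WT against XY-WT and -3.11 in XY-KO against XX-WT, and Gata2 at 3.48 and -3.50, in the authors' deposited table (limma adjusted p 8.27e-08 or less in each). Nfe2, a factor of erythroid cells and megakaryocytes named here after its values were seen, was at -1.89 (limma adjusted p 0.00281) and 1.74 (limma adjusted p 0.00627) in the same comparisons of the authors' deposited table. Its derived levels were low, at 1.23 log2 CPM in XY-WT, -0.66 in XX-WT and 1.09 in XY-KO. Sox6 was at -1.20 (limma adjusted p 0.000449) and 1.14 (limma adjusted p 0.000889) in the same comparisons of the authors' deposited table. Derived levels in XX-WT were 6.38 log2 CPM for Runx1 and 4.22 for Gata2. Which cells of the gonad held the transcripts of these factors was not tested. In all, 3 were higher and 2 lower in XX-WT than in XY-WT, 2 were higher and 3 lower in XY-KO than in XX-WT, and none was called by limma between XY-KO and XY-WT, where 4 had an unadjusted p under 0.05, against 18.9% of all genes. The 5 of 17 called in each of the first comparisons stand beside 23.3% and 18.3% of all genes. Klf1, the factor that drives adult beta globin, was scarce, at 0.41 log2 CPM in XY-WT, -0.53 in XX-WT and -0.62 in XY-KO. Its difference between XY-KO and XX-WT was -0.08 (SE 0.485) in the authors' deposited table. Of 14 further erythroid genes, 2 were higher in XX-WT than in XY-WT and 2 lower in XY-KO than in XX-WT, and none was called by limma between XY-KO and XY-WT, where 2 had an unadjusted p under 0.05. The shares over all genes were 23.3%, 18.3% and, for the unadjusted p, 18.9%. Kit, a receptor of blood progenitors and of germ cells, was in both sets, at 0.50 (limma adjusted p 0.0337) and -0.65 (limma adjusted p 0.0101) in the authors' deposited table, with Cat, catalase, at -0.38 (limma adjusted p 0.0425) in the second. Hemgn, a nuclear protein of erythroblasts, was at 1.09 in XY-KO against XY-WT (SE 0.438, limma adjusted p 0.194; the authors' deposited table). The single other globin measured, Cygb, a cytoglobin of connective tissue cells, was at -0.09 in XY-KO against XX-WT (the authors' deposited table, limma adjusted p 0.857).

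**Figure D5:**
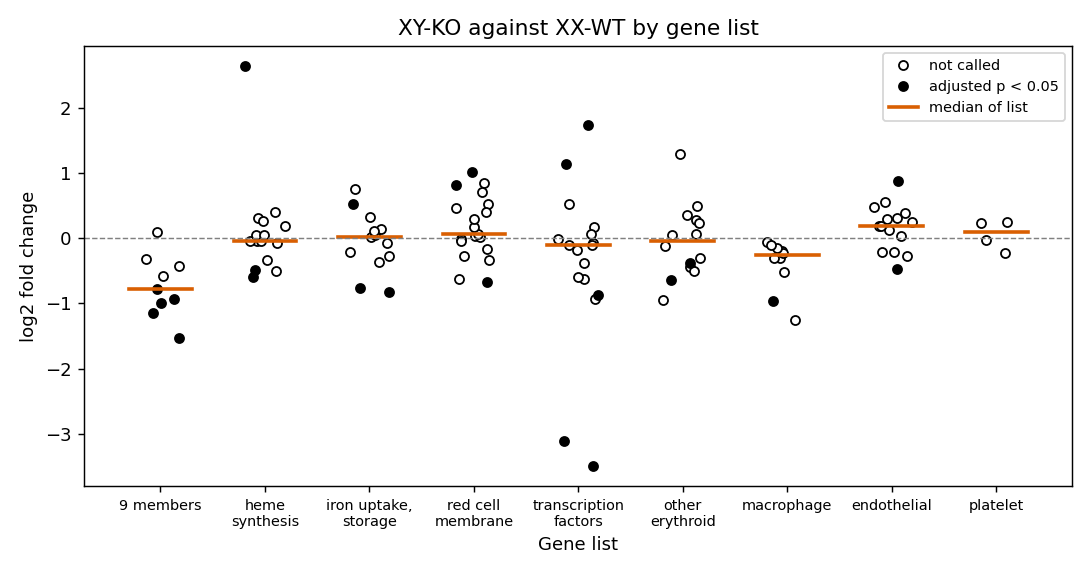
The authors' log2 fold changes of XY-KO against XX-WT (vertical axis) for the 9 genes and for 8 lists, 1 point per gene, filled where the limma adjusted p is under 0.05, with the median of each list as a bar; Cygb and the heme breakdown genes are not drawn. The median of the 9 genes lies at -0.78, and those of the red cell membrane and heme synthesis genes at 0.06 and -0.04.

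Genes of other blood and vessel cells were set beside the globin difference between XY-KO and XX-WT. In that comparison 9.11% of all genes were called lower and 9.16% higher, and 29.5% had an unadjusted p under 0.05. The few calls in the lists below stand beside those shares. Of 10 macrophage markers measured 1 was lower in XY-KO, the defining marker Adgre1, at -0.96 (limma adjusted p 0.0392) in the authors' deposited table. All 10 had negative values (median -0.26). Their summed derived level was 27.5 CPM in XY-WT, 34.3 in XX-WT and 27.5 in XY-KO. Of 15 endothelial markers 1 was higher and 1 lower in XY-KO, with a median of 0.19. For these, the authors' deposited table gave Tek 0.87 (limma adjusted p 0.00108) and Pecam1 -0.48 (limma adjusted p 0.0163). Endothelial markers summed to 262 CPM in XY-WT, 230 in XX-WT and 249 in XY-KO. None of 4 platelet markers was called by limma in any comparison or had an unadjusted p under 0.05, and their sum ran from 8.61 CPM in XX-WT to 9.34 in XY-KO. Of 7 heme breakdown genes 1 was higher in XY-KO than in XX-WT, Hmox1, heme oxygenase, at 0.91 (limma adjusted p 0.00298) in the authors' deposited table. Hmox1 was lower in XX-WT than in XY-WT (limma adjusted p 0.00111), at derived levels of 3.14 and 4.14 log2 CPM. The transporter Flvcr2 was lower there too, at -0.89 (limma adjusted p 0.0337, the authors' deposited table), where 12.4% of all genes were called lower. The part of these cells in the globin difference was not tested.

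The genes whose pattern over the 3 group means was most like that of Hbb-bh1 were sought among 7342 named genes at or above median expression, by distance in the pair of fold changes against XY-WT. The nearest 5 were Tfcp2l1 (distance 0.012 in log2), Ttc39b (0.049), B4galt5 (0.087), Rbm44 (0.10) and Alg13 (0.118). The likeness is over 3 group means and is given as a description only. Their values in XY-KO against XX-WT ran from -1.65 for B4galt5 to -1.38 for Alg13 in the authors' deposited table.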

How the data were processed

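RNA was column-purified, amplified by the SPIA method and sequenced as read pairs of 150 bases per the labels, which give a planned read number and no number obtained. Per the submitters' processing notes, tools included limma 3.24.0, HTSeq 0.6.1p1 (a read counter), TopHat2 2.0.8 (an aligner) and Trimmomatic 0.30, with genome build GRCm38. The authors deposited 3 tables of group comparisons, with log2 fold changes, mean log2 expression, limma t and log-odds scores, p-values and adjusted p-values, per the file headers. Mean log2 expression was read as log2 CPM, since its antilogs summed to 978109. The number of reads per sample is unknown here, so no counting interval or floor was computed.

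The SE was taken as the fold change divided by t, and 95% intervals used 15.27 degrees of freedom, at which t gave the deposited p. Group levels assumed equal weight of groups. Called means a limma adjusted p under 0.05 over all 15300 genes, with no fold limit. Lengths, GC content and positions came from GENCODE M21 (15192 genes matched), promoters from RefSeq, which held none for Hbb-bh1 or Slc4a1 in the table used. The GC and length trend was a robust regression on polynomials of degree 3, tested on simulated data. Members and lists were chosen with earlier results of these data known. Named from each list were the 3 genes with the smallest adjusted p in a comparison and the best called gene of the other direction, besides defining markers; some genes so chosen are not reported here. Software was statsmodels 0.14.6, scipy 1.17.1, pandas 2.3.3, numpy 2.4.6, matplotlib 3.10.9 and biopython 1.88 under Python 3.11.15.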

Additional observations from a re-analysis of the deposited data

How the results depend on the processing

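No paired analysis was possible because the tables hold fitted group results and no values per sample; for the same reason no sample could be left out. The count of the 9 genes called between XY-KO and XX-WT, 5, became 0 at an adjusted p under 0.01 and with Bonferroni adjustment, 2 with a 2-fold limit and 1 after removal of the GC and length trend. It was 5 with the adjustment over the 3 comparisons together and with median-centred fold changes, and 4 among genes at or above median expression, where Hbb-bh1 is not tested. Between XX-WT and XY-WT the count of 1 became 0 at an adjusted p under 0.01, with Bonferroni adjustment and among genes at or above median expression. Between XY-KO and XY-WT it was 0 under all 7 alternatives. For the 79 other erythroid genes, the count of 1 between XY-KO and XY-WT became 0 with Bonferroni adjustment, with a 2-fold limit, at the stricter adjusted p of 0.01, median-centred and without the trend, and 5 with the adjustment over the 3 comparisons together. The count of 17 between XX-WT and XY-WT became 8 with a 2-fold limit and 3 with Bonferroni adjustment. The count of 16 between XY-KO and XX-WT became 9 at the stricter adjusted p of 0.01, 6 with a 2-fold limit and 3 with Bonferroni adjustment. With no alternative applied, 23.3% of all genes were called between XX-WT and XY-WT and 18.3% between XY-KO and XX-WT. Between XY-KO and XY-WT that share was 2.27%. Of 186 repeated values of the 9 genes, 166 kept their direction and side of the threshold, 19 were no longer called and 1 changed sign: Hbb-bt between XY-KO and XY-WT was at 0.05 with the trend removed (adjusted p 0.947). A stricter threshold or a fold limit calls fewer genes by its construction, and cannot call a gene that was not called before. Fold changes were altered only by median-centring and by removal of the trend, so under the other alternatives the direction was fixed. Many of the 166 were thus the same by construction, and their number does not measure stability. For the trend the cause was not tested. Sample depths are unknown, so what they limit was not computed.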
